A study of Homo sapiens with 9 samples.

Results

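The endoplasmic reticulum (ER) folds, checks and exports the proteins that a cell secretes or places in its membranes, and 34 genes of this machinery were followed here among the 26475 rows of a read count table. The genes were chosen by symbol, as ER stress sensors, chaperones, disulfide isomerases, components of ER-associated degradation and parts of the translocon, and all 34 matched a row and passed the filter on low counts. RNA was measured by RNA-seq in MDA-MB-231 cells, a human triple-negative breast adenocarcinoma line, in 9 libraries. The knockdown group (ACSL4 KD) was 3 batches of cells stably transduced with pLKO.1 carrying a short hairpin RNA against ACSL4, an acyl-CoA synthetase that prefers polyunsaturated fatty acids. The PRGL493 group was 3 batches of empty-vector control cells given PRGL493, an inhibitor of ACSL4, so these cells carried the pLKO.1 vector too. The control group was 3 batches of cells with the empty pLKO.1 vector and no treatment. A single hairpin construct was named. The sources used here give neither a dose nor a duration for PRGL493, and no solvent control, so what the solvent did and what PRGL493 did cannot be told apart.

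Unfolded proteins in the ER lumen are sensed by IRE1 (gene ERN1), ATF6 and PERK (EIF2AK3), which are held inactive in part by the chaperone BiP (HSPA5). On stress, IRE1 splices the messenger RNA of the transcription factor XBP1, ATF6 is cut into a transcription factor in the Golgi, and PERK slows translation. ATF6 and spliced XBP1 raise the transcription of chaperones, isomerases and degradation factors, and much of this acts through the ER stress response element (ERSE), where ATF6 binds next to the factor NF-Y.

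The promoters are shown first because the members that fell furthest in PRGL493-treated cells include the textbook genes of this element. Windows of 250 bases before and 50 bases after each RefSeq start site (build GRCh38.p14) were available for 30 of the 34 genes and were searched on both strands. The ERSE was searched as CCAAT and CCACG with 9 bases of any kind between them. It was present in the windows of 8 of these 30 member genes. Among all genes with a window, members included, 25 had it (0.0916%). The shorter ERSE-II, searched as ATTGG and CCACG with 1 base between them, was present in 3 others, against 0.0696% of all genes. The UPRE core TGACGTGG was found in HYOU1, where it overlaps an ERSE-II, and in TXNDC5, against 0.927% of all genes. A match describes the letters only and is no evidence that a factor binds there. The members were chosen as ER stress genes and include textbook genes of the ERSE, so an excess over all genes was built in and is no finding. The elements were searched for after the data had been seen. This pair of sequences was picked by hand, and P4HB does not stand for all members without a match. Of 19 members with a window and neither ERSE nor ERSE-II, 9 were called lower with PRGL493 and 3 higher. Among all genes tested 20.4% were called lower and 21.4% higher. The sequence before the HSPA5 start site (chr9:125241344-125241593, minus strand) is printed 5′ to 3′ with an exact ERSE in capitals. That of P4HB, a disulfide isomerase with no match that did not fall, follows in the same form (chr17:81860536-81860785, minus strand).
HSPA5: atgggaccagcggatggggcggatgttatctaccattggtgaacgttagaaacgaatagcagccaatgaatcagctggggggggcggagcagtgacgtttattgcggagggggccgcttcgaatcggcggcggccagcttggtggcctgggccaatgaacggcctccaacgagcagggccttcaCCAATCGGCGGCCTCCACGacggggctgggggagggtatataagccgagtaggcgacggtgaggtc
P4HB: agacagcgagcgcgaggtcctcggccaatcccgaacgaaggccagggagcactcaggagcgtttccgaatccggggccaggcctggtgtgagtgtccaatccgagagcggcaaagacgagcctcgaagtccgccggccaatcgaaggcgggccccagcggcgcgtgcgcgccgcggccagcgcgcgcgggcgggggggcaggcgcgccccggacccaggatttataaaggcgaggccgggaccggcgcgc

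The elements of other members are given with 15 flanking bases on either side, on the strand of the gene, with the element in capitals, to show which letters they share. A capital run that starts with CGTGG is the element read on the opposite strand.
HSP90B1, upstream ERSE (chr12:103930216-103930234, plus strand): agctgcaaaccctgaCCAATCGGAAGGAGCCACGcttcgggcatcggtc
HSP90B1, second ERSE (chr12:103930321-103930339, plus strand): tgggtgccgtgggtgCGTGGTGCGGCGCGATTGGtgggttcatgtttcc
CALR, ERSE (chr19:12938384-12938402, plus strand): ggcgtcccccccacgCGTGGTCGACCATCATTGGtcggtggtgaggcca
XBP1, ERSE (chr22:28800603-28800621, minus strand): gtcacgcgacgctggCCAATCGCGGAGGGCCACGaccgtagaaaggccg
CRELD2, ERSE (chr22:49918554-49918572, plus strand): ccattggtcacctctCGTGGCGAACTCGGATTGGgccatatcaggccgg
HERPUD1, ERSE-II (chr16:56932025-56932035, plus strand): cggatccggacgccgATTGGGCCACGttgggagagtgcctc
HYOU1, ERSE-II nearest the start site (chr11:119057274-119057284, minus strand): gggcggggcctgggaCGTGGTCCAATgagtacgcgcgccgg
The remaining matches were in CANX, PDIA6, SERP1 and SDF2L1, and HYOU1 held a further ERSE-II.

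Library totals ran from 28673940 to 43027217 counts. ACSL4 itself was at 29.5, 23.7 and 27.6 CPM (counts relative to the library total after scaling with TMM factors) in the knockdown libraries, 333, 349.8 and 359.9 CPM in the PRGL493 libraries and 342, 339 and 366 CPM in the control libraries. ACSL4 was low in each knockdown library, and its PRGL493 value was not called (-0.01 on the log2 scale, SE 0.06, adjusted p = 0.95). Vimentin (VIM) was at 1610.2 to 1810.2 CPM in all libraries, while the oestrogen and progesterone receptor genes ESR1 and PGR were at or below 0.155 CPM. ERBB2 was at 68 to 104 CPM, the leukocyte marker PTPRC at or below 0.079 CPM and the endothelial marker PECAM1 at 1.1 to 3.11 CPM. CD44 was at 1257 to 1562 CPM and EGFR at 172 to 287 CPM, with EGFR lower in knockdown (log2 fold change -0.45, SE 0.11). Of the luminal epithelial markers CDH1 was at 0.419 to 2.04 CPM and GATA3 at 10.9 to 15.2 CPM. Knockdown replicate 2 differed from the rest by transcript length. Its median log2 deviation from the gene means was 0.15 for genes with at most 2741 bp of exons and -0.14 for genes above 4831 bp, against -0.06 to 0.06 in the other libraries. Without it 8 of the 34 genes were higher and 4 lower in knockdown than in control. Levels are means ± SD of 3 libraries, and the SE beside a log2 fold change is that of the fitted model. Each adjusted p of a gene comes from edgeR's quasi-likelihood test with Benjamini-Hochberg adjustment over the 14135 genes tested, with a threshold of 0.05. The series text calls the 3 samples of a group different batches of cells and does not say how they were separated, so the p-values measure the spread between these samples, which may be technical. Fewer transcripts per cell cannot be told apart from fewer cells of a kind in such bulk RNA.

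Most ER chaperones were lower in PRGL493-treated cells than in control cells, while most did not pass the test in ACSL4 knockdown cells. Of the 34 genes 20 were lower and 4 higher in PRGL493 libraries than in control libraries, with a median log2 fold change of -0.25. Over all genes tested the median was 0.01, and 20.4% were called lower and 21.4% higher. In knockdown against control 2 genes were lower and 7 higher, with a median of 0.04, against 15.3% of all genes called lower and 14.7% higher (median 0.00). The knockdown counts are 20.6% of the members for rises and 5.88% for falls. The PRGL493 libraries lay wholly below the control libraries for 22 of the 34 genes, against 27.2% of all genes, and wholly above for 5, against 30.1%. The knockdown libraries lay wholly below for 4, against 21.2%, and wholly above for 10, against 20.8%. Both comparisons use the same 3 control libraries, so a state of those libraries enters both.

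**Figure D1:**
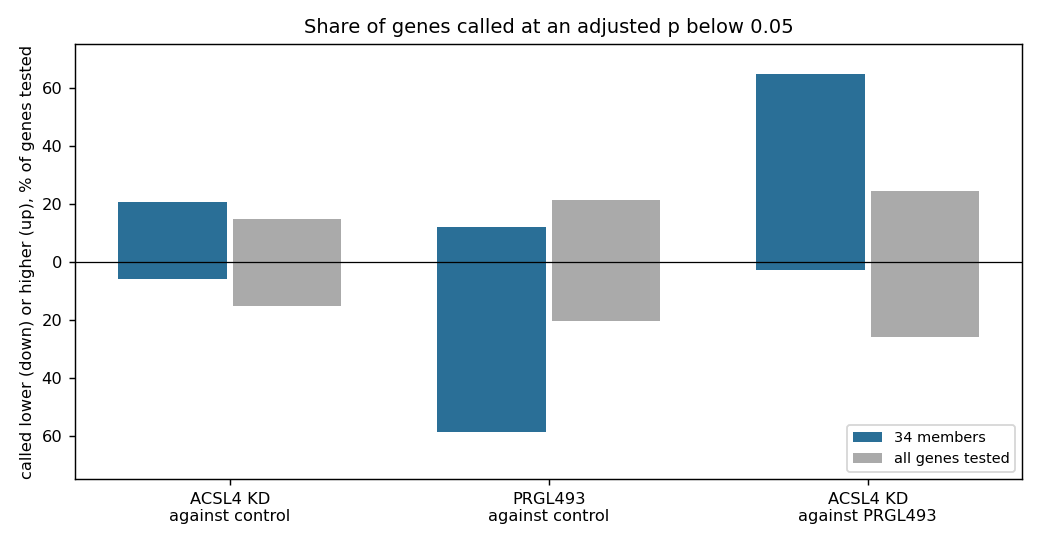
Percent of genes called at an adjusted p below 0.05 in each comparison, higher drawn upward and lower drawn downward, for the 34 ER genes (blue) and all 14135 genes tested (grey). In PRGL493 against control 58.8% of the ER genes were lower, against 20.4% of all genes.

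In sum the 34 genes took 1.81%, 1.83% and 1.79% of the counts in knockdown libraries, 1.36%, 1.38% and 1.38% in PRGL493 libraries and 1.77%, 1.8% and 1.72% in control libraries. The PRGL493 libraries lay below every other library, and the knockdown and control ranges overlapped. HSPA5 alone took 0.174% to 0.177% of the counts in PRGL493 libraries and 0.351% to 0.376% in control libraries. Without HSPA5 and HSP90B1 the other 32 genes took 1.24% to 1.28% in knockdown libraries, 1.04% to 1.05% in PRGL493 libraries and 1.14% to 1.18% in control libraries. On this measure the knockdown libraries lay wholly above and the PRGL493 libraries wholly below the control libraries. These shares are of library totals without TMM factors. With totals alone the median log2 fold change of all genes in knockdown against control was 0.035, against 0.001 with TMM, so part of the knockdown excess may reflect the scaling.

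Among the chaperones, HSPA5 (BiP, chromosome 9, 125234853 to 125241330, minus strand) binds unfolded chains in the lumen and is the standard readout of ER stress. It was at 3282, 3337 and 3219 CPM in knockdown libraries, 1747, 1779 and 1756 CPM in PRGL493 libraries and 3729, 3819 and 3541 CPM in control libraries. The 3 groups did not overlap, with the PRGL493 libraries far below both others. With PRGL493 HSPA5 was at 47.6% of control (log2 fold change -1.07, SE 0.05, adjusted p = 1.6e-11), and 3.15% of all genes tested had a fold change as low or lower. In knockdown cells it was at 88.7% of control (log2 fold change -0.17, SE 0.05, adjusted p = 0.0086), a call that was lost without control replicate 2.

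HSP90B1 (GRP94, chromosome 12, 103930107 to 103953645, plus strand) is the HSP90 of the ER and folds integrins and Toll-like receptors. Its levels were 2292, 2192 and 2199 CPM in knockdown libraries, 1444, 1483 and 1539 CPM in PRGL493 libraries and 2386, 2452 and 2336 CPM in control libraries. Every PRGL493 library was below every other library. In PRGL493-treated cells HSP90B1 was at 62.2% of control (log2 fold change -0.68, SE 0.05, adjusted p = 6.5e-09), while the knockdown value did not pass the test (-0.10, SE 0.05, adjusted p = 0.1).

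HYOU1 (GRP170) exchanges the nucleotide of BiP. It stood at 499, 535 and 529 CPM in knockdown libraries, 348, 355 and 324 CPM in PRGL493 libraries and 509, 493 and 473 CPM in control libraries. The log2 fold change was -0.52 with PRGL493 (SE 0.05, adjusted p = 6.7e-07) and 0.08 in knockdown (SE 0.05, adjusted p = 0.23).

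DNAJB9 (ERdj4) is a J-domain partner that brings BiP to IRE1 and to chains bound for degradation. Its levels were 71.5, 73.3 and 64.5 CPM in knockdown libraries, 45.5, 47.3 and 48.4 CPM in PRGL493 libraries and 72.4, 72.6 and 71.2 CPM in control libraries. The fold change was -0.62 with PRGL493 (SE 0.06, adjusted p = 4.9e-07) and -0.05 in knockdown (SE 0.06, adjusted p = 0.59), both on the log2 scale. An exon of DNAJB9 overlaps THAP5 on the opposite strand over 183 bp, and since strand use in counting was not stated some of its reads may belong to THAP5.

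Of the 11 chaperones and co-chaperones 10 fell with PRGL493 and 0 rose by edgeR and by DESeq2 (0 rose at an unadjusted p below 0.05), with a median log2 fold change of -0.38. Among all genes tested 20.4% were called lower and 21.4% higher. The other members that fell were MANF, a secreted partner of BiP (-0.51, SE 0.07), and the co-chaperone DNAJB11 (-0.38, SE 0.05). So did the lectin chaperone CALR (-0.34, SE 0.05), SDF2L1, which works with DNAJB11 (-0.32, SE 0.10), DNAJC3, which also restrains PERK (-0.25, SE 0.05), and the membrane-bound lectin chaperone CANX (-0.17, SE 0.05). The call for SDF2L1 was lost without control replicate 2. CRELD2, a disulfide isomerase-like protein induced by ER stress, was at 11.8 ± 0.0977 CPM in PRGL493 libraries and 13.1 ± 0.527 CPM in control libraries and was not called (log2 fold change -0.16, SE 0.08, adjusted p = 0.12). In knockdown cells HSPA5 and DNAJC3 (log2 fold change -0.22, SE 0.05, adjusted p = 0.0053) fell, and the other 9 did not pass the test. These falls are 18.2% of the chaperones, near the 15.3% of all genes called lower in knockdown, where 14.7% were called higher.

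**Figure D2:**
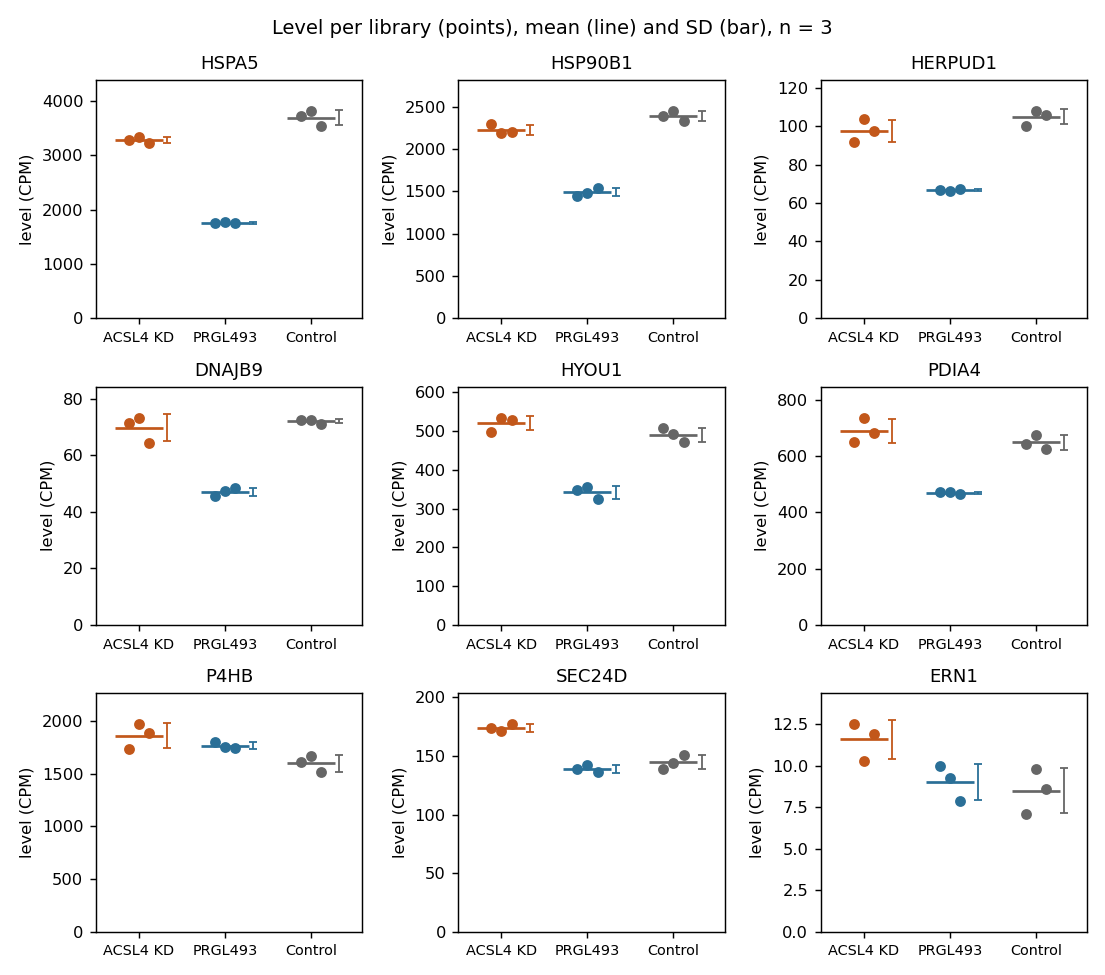
Level in CPM of 9 genes in each library (points), with the mean (line) and SD (bar) of the 3 knockdown (orange), 3 PRGL493 (blue) and 3 control libraries (grey). The PRGL493 libraries lie below all others for HSPA5, HSP90B1, HERPUD1, DNAJB9, HYOU1 and PDIA4, and the knockdown libraries above all others for SEC24D and ERN1.

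To compare genes with each other, levels were divided by the summed exon length of the GENCODE release 29 basic set. On this scale of CPM per kilobase CALR stood at 911 ± 65.2, HSPA5 at 839 ± 15.1, HSP90B1 at 778 ± 19.5, P4HB at 714 ± 44.7 and CANX at 559 ± 22.6 in knockdown cells. With PRGL493 the order was CALR at 699 ± 20.8, P4HB at 678 ± 11.7, HSP90B1 at 519.6 ± 16.7, CANX at 492 ± 10.8 and HSPA5 at 450.4 ± 4.17. In control cells it was HSPA5 at 946 ± 36.3, CALR at 885 ± 32.6, HSP90B1 at 835 ± 20.3, P4HB at 613 ± 29.4 and CANX at 551 ± 1.13 (SD, n = 3 in each group). HSPA5 thus had the highest mean of all members per kilobase in control cells and the lowest of these 5 in PRGL493-treated cells. Of the neighbours in these orders, CALR and HSPA5 as well as HSP90B1 and P4HB in knockdown cells differed by less than the sum of their SDs. The same held for CALR and P4HB with PRGL493, and for HSPA5 and CALR as well as CALR and HSP90B1 in control cells. DERL3 and ERN1 were lowest in every group, at 0.119 to 0.202 and 0.867 to 1.18 CPM per kilobase.

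The disulfide isomerases split into genes that fell with PRGL493 and genes that did not. PDIA4 (ERp72), which forms and rearranges disulfide bonds, was at 649, 736 and 681 CPM in knockdown libraries, 472, 471 and 464 CPM in PRGL493 libraries and 643, 676 and 623 CPM in control libraries. It fell with PRGL493 (on the log2 scale -0.47, SE 0.05, adjusted p = 3.1e-06), and in knockdown its value was 0.09 (SE 0.05, adjusted p = 0.22). PDIA6 (P5), which can switch off IRE1, had 491, 516 and 491 CPM in knockdown libraries, 375, 381 and 389 CPM in PRGL493 libraries and 470.2, 489 and 451 CPM in control libraries. The PRGL493 libraries were again below both other groups, and the fall was 0.30 on the log2 scale (log2 fold change -0.30, SE 0.05, adjusted p = 1.1e-04). PDIA3 (ERp57), the partner of CALR and CANX, stood at 765, 814 and 772 CPM in knockdown libraries, 594, 602 and 618 CPM in PRGL493 libraries and 736, 746 and 693 CPM in control libraries. Its fall with PRGL493 was called (log2 fold change -0.26, SE 0.05, adjusted p = 3.8e-04). In knockdown PDIA3 was at 0.11 (SE 0.05, adjusted p = 0.089) and PDIA6 at 0.09 (SE 0.05, adjusted p = 0.19), and neither was called.

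P4HB, the main protein disulfide isomerase and a subunit of collagen prolyl hydroxylase, and TXNDC5 (ERp46) rose in knockdown cells. TXNDC5 was at 388, 423 and 395 CPM in knockdown libraries, 376, 385 and 372 CPM in PRGL493 libraries and 347, 359 and 330.3 CPM in control libraries. All 6 libraries of the treated groups were above all control libraries. The log2 fold change of TXNDC5 in knockdown was 0.22 (SE 0.05, adjusted p = 0.0036) and that of P4HB was 0.22 (SE 0.05, adjusted p = 0.0051). With PRGL493 both were just past the threshold, TXNDC5 at 0.13 (SE 0.05, adjusted p = 0.04997) and P4HB at 0.15 (SE 0.05, adjusted p = 0.037). The prolyl isomerase PPIB, which acts on procollagen, was at 266 ± 23.1 CPM in knockdown, 225 ± 6.74 CPM with PRGL493 and 242 ± 11.6 CPM in control cells. It was called in neither treatment, with log2 fold changes of 0.14 (SE 0.06) in knockdown and -0.11 (SE 0.06) with PRGL493. Counts of PDIA3, PDIA6, PPIB, TXNDC5, ATF6 and EIF2AK3 were not whole in at least 1 library (by more than 0.01), so the deposited values of these 6 genes include shared or estimated reads.

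Of the 3 sensors and the transcription factor XBP1, ATF6 and XBP1 fell with PRGL493 and ERN1 and EIF2AK3 rose in knockdown. Among all genes 20.4% were called lower and 21.4% higher with PRGL493, and 15.3% lower and 14.7% higher in knockdown. The median log2 fold change of these 4 genes was 0.13 in knockdown and -0.10 with PRGL493, against 0.00 and 0.01 over all genes tested. ATF6 was at 142, 129 and 141 CPM in knockdown libraries, 114, 117 and 120.4 CPM in PRGL493 libraries and 141, 155 and 156 CPM in control libraries. It was lower in every PRGL493 library than in any other (log2 fold change against control -0.36, SE 0.06, adjusted p = 9.1e-05), and in knockdown it did not pass the test (-0.13, SE 0.06, adjusted p = 0.085). XBP1 was at 162, 191 and 165 CPM in knockdown libraries, 138, 143 and 140.3 CPM in PRGL493 libraries and 164, 174 and 158 CPM in control libraries. It fell with PRGL493 (-0.24, SE 0.06, adjusted p = 0.0059) and was at 0.06 in knockdown (SE 0.06, adjusted p = 0.47). These counts cover all XBP1 RNA, spliced or not.

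ERN1, which encodes IRE1, was low throughout. Its levels were 12.5, 10.3 and 11.9 CPM in knockdown libraries, 9.97, 9.26 and 7.87 CPM in PRGL493 libraries and 7.1, 9.8 and 8.59 CPM in control libraries. It rose in knockdown (log2 fold change 0.45, SE 0.12, adjusted p = 0.0092), a call lost without control replicate 1, and did not pass with PRGL493 (0.09, SE 0.12, adjusted p = 0.58). EIF2AK3, which encodes PERK, was at 46.2, 44.5 and 44.1 CPM in knockdown libraries, 39.7, 39.5 and 41.3 CPM in PRGL493 libraries and 40.8, 39.4 and 37.5 CPM in control libraries. Its rise in knockdown (0.20, SE 0.06, adjusted p = 0.016) was lost without control replicate 2 and without control replicate 3, and its PRGL493 value was 0.03 (SE 0.06, adjusted p = 0.68).

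Among the genes of ER-associated degradation HERPUD1 had the largest called change. HERPUD1 (HERP, chromosome 16, 56932048 to 56944863, plus strand) holds the degradation complex together and turns over fast. It was at 91.6, 104 and 97.3 CPM in knockdown libraries, 66.6, 66.2 and 67.4 CPM in PRGL493 libraries and 100.1, 108 and 106 CPM in control libraries. The PRGL493 libraries were close to each other and far below the rest (63.8% of control, log2 fold change -0.65, SE 0.06, adjusted p = 1.6e-07). In knockdown HERPUD1 did not pass the test (-0.10, SE 0.06, adjusted p = 0.18).

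EDEM1, a mannosidase-like factor that extracts misfolded glycoproteins, was at 191, 173 and 184 CPM in knockdown libraries, 157, 163 and 151 CPM in PRGL493 libraries and 196, 198 and 197 CPM in control libraries. SEL1L, the adaptor of the ubiquitin ligase, was at 287, 238 and 259 CPM in knockdown libraries, 224, 226 and 240.2 CPM in PRGL493 libraries and 270, 275 and 289 CPM in control libraries. Both fell with PRGL493, EDEM1 by 0.33 (SE 0.05, adjusted p = 7.4e-05) and SEL1L by 0.27 (SE 0.06, adjusted p = 0.0019) on the log2 scale, and neither passed the test in knockdown. SYVN1 (HRD1), the ligase that SEL1L serves, was at 109, 101 and 113 CPM in knockdown libraries, 119.7, 116 and 114 CPM in PRGL493 libraries and 105, 105 and 105 CPM in control libraries. SYVN1 rose with PRGL493 (0.15, SE 0.05, adjusted p = 0.031), as did the channel component DERL1 (0.13, SE 0.05, adjusted p = 0.042). Exons of SYVN1 overlap those of MRPL49 on the opposite strand over 93 bp.

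The lectin OS9 was at 208 ± 1.65 CPM with PRGL493 and 194 ± 9.01 CPM in control cells, and DERL2 at 49.9 ± 3.69 CPM with PRGL493 and 49.7 ± 4.02 CPM in control cells, with no call in either treatment. The log2 fold change of OS9 was 0.13 (SE 0.05) in knockdown and 0.10 (SE 0.05) with PRGL493, and that of DERL2 was 0.13 (SE 0.07) in knockdown and 0.01 (SE 0.07) with PRGL493. DERL3 had only 11 to 30 counts per library, and 2911 bp of its exons overlap SMARCB1 on the opposite strand, so its log2 fold change with PRGL493 (-0.79, SE 0.36, adjusted p = 0.089) is poorly determined. The group as a whole had 3 members lower and 2 higher of 8 with PRGL493, or 37.5% and 25%, beside 20.4% and 21.4% of all genes. None was called in knockdown (edgeR), where 2 had an unadjusted p below 0.05 and DESeq2 called 0. In that comparison 15.3% of all genes were lower and 14.7% higher.

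The 4 rises with PRGL493 rest on small differences. None of P4HB, TXNDC5, SYVN1 and DERL1 was called under all 16 alternatives, and their number was 0 without control replicate 1, without control replicate 3 and without PRGL493 replicates 1 or 2. It was 1 without control replicate 2, PRGL493 replicate 3 or knockdown replicate 3. By contrast 19 of the 20 falls, all but SDF2L1, were called under each of the 16 alternatives.

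**Figure D3:**
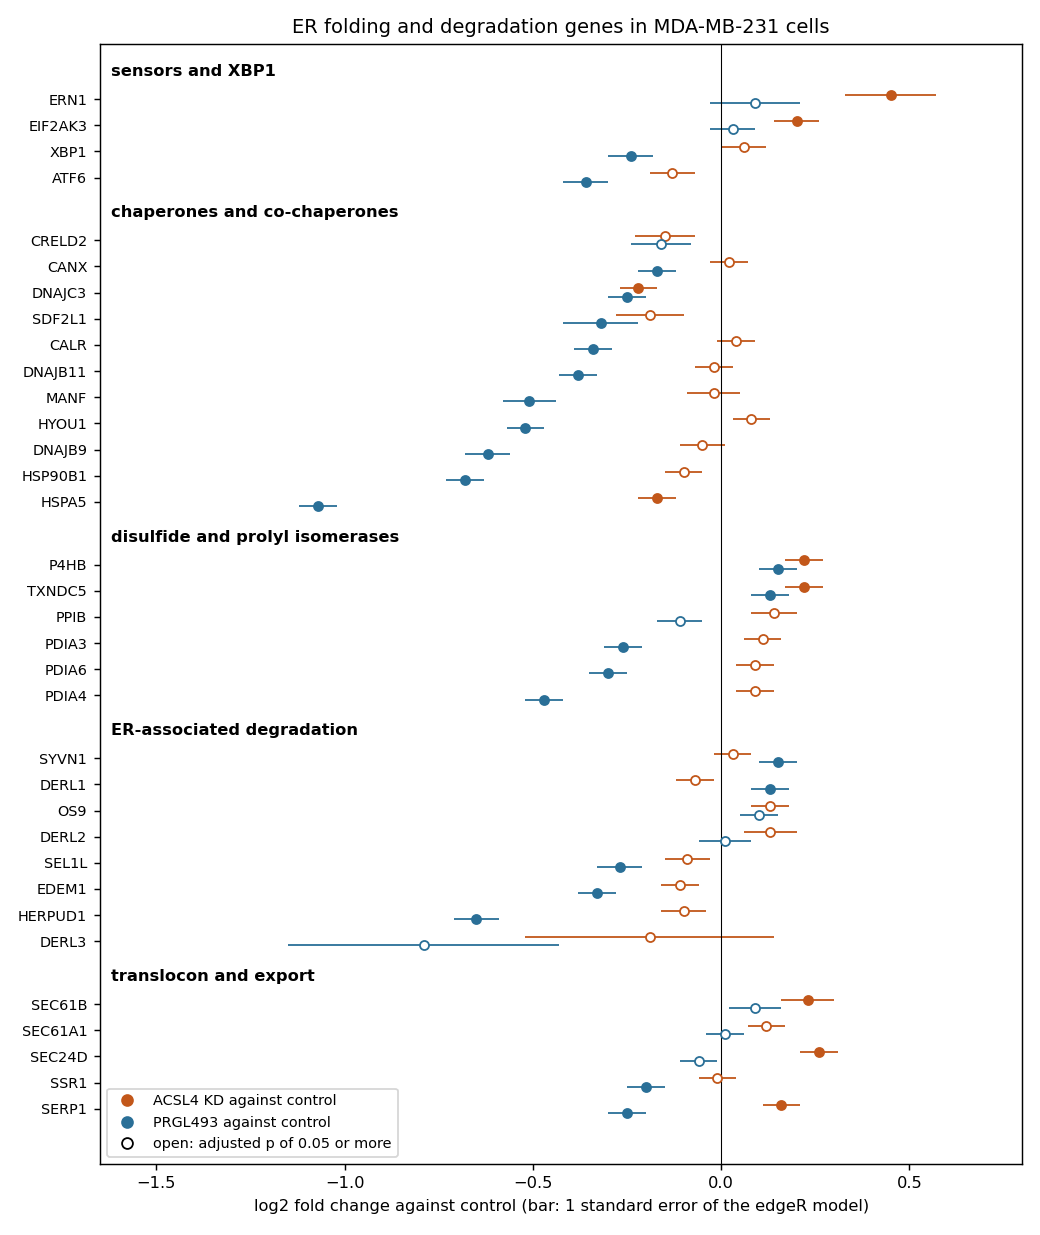
Log2 fold change of the 34 genes in knockdown against control (orange) and PRGL493 against control (blue), grouped by role, with bars of 1 SE. Filled points passed an adjusted p of 0.05. With PRGL493 HSPA5 lies furthest to the left at -1.07, and in knockdown no point lies below -0.22.

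Of the 5 translocon and export genes 3 rose in knockdown, where 14.7% of all genes did, and 2 fell with PRGL493, where 20.4% of all genes did. SEC24D, a cargo-binding subunit of the COPII coat that packs large cargo such as procollagen, was at 174, 171 and 177 CPM in knockdown libraries, 139, 142 and 136 CPM in PRGL493 libraries and 139, 144 and 151 CPM in control libraries. All knockdown libraries lay above all others (log2 fold change against control 0.26, SE 0.05, adjusted p = 7.1e-04), and the PRGL493 value did not pass the test (-0.06, SE 0.05, adjusted p = 0.36). SEC61B, the beta subunit of the translocon, was at 42.1, 45.4 and 39.8 CPM in knockdown libraries, 39.9, 37.2 and 38.6 CPM in PRGL493 libraries and 33.8, 37.3 and 37.7 CPM in control libraries. It rose in knockdown (0.23, SE 0.07, adjusted p = 0.016), and this call was lost without control replicate 1.

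SERP1 (RAMP4), which steadies membrane proteins during translocation, went opposite ways. It was at 186, 194 and 177 CPM in knockdown libraries, 142, 134 and 142 CPM in PRGL493 libraries and 166, 162 and 169.6 CPM in control libraries, with no overlap between any 2 groups. The log2 fold change was 0.16 in knockdown (SE 0.05, adjusted p = 0.023) and -0.25 with PRGL493 (SE 0.05, adjusted p = 8.7e-04). Its knockdown call was lost without control replicate 1 and without control replicate 2, and its exons overlap those of EIF2A on the opposite strand over 146 bp. SSR1, the alpha subunit of the translocon-associated complex, was at 445, 415 and 399.9 CPM in knockdown libraries, 357, 365 and 382 CPM in PRGL493 libraries and 410.2, 429 and 428 CPM in control libraries. It fell with PRGL493 (-0.20, SE 0.05, adjusted p = 0.0052). SEC61A1, the channel itself, lay near the threshold in knockdown. Its log2 fold change was 0.12 (SE 0.05, adjusted p = 0.05471 by edgeR), and it was called higher under 5 of the 16 alternatives, among them DESeq2 (adjusted p = 0.04). With PRGL493 its value was 0.01 (SE 0.05, adjusted p = 0.84).

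Of the 7 knockdown rises P4HB, TXNDC5 and SEC24D were called under all 16 alternatives, and of the 2 falls DNAJC3 was. The count of rises was 4 without control replicate 1 and 11 without knockdown replicate 1. The count of falls was 1 without control replicate 2, 6 without knockdown replicate 1 and 4 without knockdown replicate 2. With libraries scaled by their totals alone 11 members were higher.

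The contrast of knockdown with PRGL493 tests whether the treatments differ. The control libraries enter its filter, scaling and dispersion, and a fit on the 6 libraries compared gave the same counts, 22 higher and 1 lower. Of the 34 genes 22 were higher in knockdown and 1 lower, with a median log2 fold change of 0.24, against 24.4% of all genes called higher and 26% lower (median -0.01). The knockdown libraries lay wholly above the PRGL493 libraries for 24 genes, against 27.3% of all genes, and wholly below for 2, against 28.8%. HSPA5 differed most among the called members (log2 fold change 0.90, SE 0.05, adjusted p = 1.5e-10), followed by HYOU1 (0.61, SE 0.05), HSP90B1 (0.58, SE 0.05), DNAJB9 (0.57, SE 0.06), PDIA4 (0.56, SE 0.05) and HERPUD1 (0.55, SE 0.06). All 4 of ATF6 (0.23), XBP1 (0.30), ERN1 (0.36) and EIF2AK3 (0.16) were higher in knockdown. DERL1 was the member that was lower (-0.20, SE 0.05, adjusted p = 0.0023). Of the 22 members higher in knockdown than with PRGL493, 19 were called under each of the 16 alternatives, the exceptions being SEL1L, ERN1 and EIF2AK3. DNAJC3, which fell in both treatments, was at 134 ± 8.92 CPM in knockdown and 131 ± 1.44 CPM with PRGL493, a difference that did not pass the test (0.03, SE 0.05, adjusted p = 0.63).

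**Figure D4:**
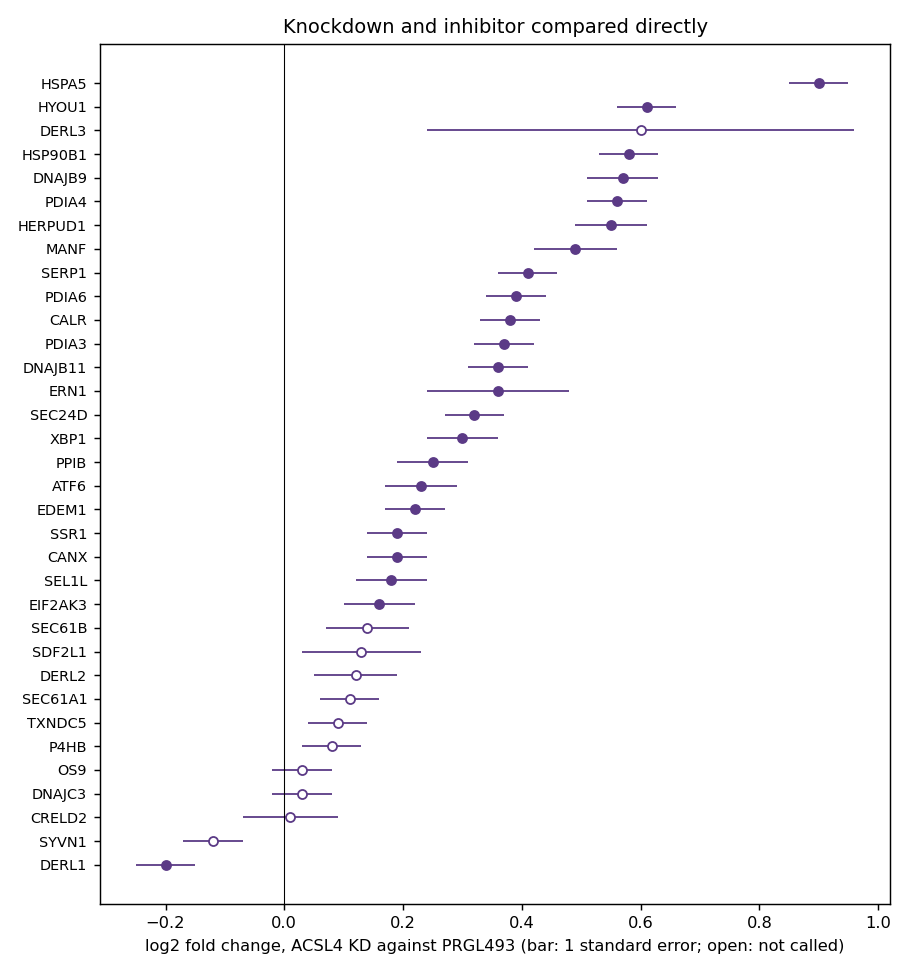
Log2 fold change of the 34 genes in knockdown against PRGL493, sorted, with bars of 1 SE, filled where the adjusted p was below 0.05. HSPA5 is highest at 0.90 and DERL1 lowest at -0.20, and 22 filled points lie to the right of 0.

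Set beside the promoter matches printed above, 10 of the 11 members with an ERSE or ERSE-II were lower with PRGL493 and 0 higher, with CRELD2 not called (median log2 fold change -0.32). Of the 19 members with a window and neither element 9 were lower and 3 higher (median -0.11). Among all genes tested 20.4% were lower and 21.4% higher. Of 20 genes tested outside the members that had an exact ERSE or ERSE-II, 6 were lower and 3 higher (median -0.05). DNAJB9, PDIA4 and MANF, which fell by 0.62, 0.47 and 0.51 on the log2 scale, had no exact match in the window. Inexact or more distant elements were not searched for, and a role of the element in the falls was not tested. In knockdown the 11 members with an element had 1 lower and 1 higher (median 0.02), beside 15.3% and 14.7% of all genes.

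Other genes of the ER, listed by role and not by how they moved, gave a wider view. Of 84 such genes tested 18 were lower and 12 higher with PRGL493, or 21.4% and 14.3%, beside 20.4% lower and 21.4% higher among all genes. Among 27 other folding factors 8 were lower and 2 higher. They included CLGN, a relative of calnexin (46 ± 5.45 CPM with PRGL493 and 72.6 ± 1.66 CPM in control cells, log2 fold change -0.66, SE 0.07, adjusted p = 1.8e-06), SIL1, a nucleotide exchange factor of BiP (-0.60, SE 0.07), and the isomerase PDIA5 (-0.32, SE 0.06). Of 18 other degradation genes 5 were higher and 0 lower in edgeR's test, with 3 lower at an unadjusted p below 0.05 and 0 lower by DESeq2. They included VCP, the ATPase that pulls substrates from the membrane (563 ± 10.9 CPM with PRGL493 and 433 ± 7.16 CPM in control cells, 0.38, SE 0.05, adjusted p = 8.4e-06), and its cofactors NPLOC4 (0.23, SE 0.05) and UFD1L (0.26, SE 0.07). Translocon, signal peptidase and glycosylation genes were lower in 7 of 20 cases and higher in 0 by edgeR and by DESeq2 (2 higher at an unadjusted p below 0.05), with STT3A (-0.27, SE 0.04) and STT3B (-0.21, SE 0.05), the catalytic subunits of the oligosaccharyltransferase, and SEC63 (-0.36, SE 0.06) among them.

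In knockdown 21 of these 84 genes were higher and 11 lower, or 25% and 13.1%, beside 14.7% higher and 15.3% lower among all genes. Of the 27 folding factors 11 were higher and 1 lower, with the prolyl isomerase FKBP11 (3.7 ± 0.298 CPM in knockdown and 1.56 ± 0.262 CPM in control cells, log2 fold change 1.25, SE 0.17, adjusted p = 3.8e-05), the calcium-binding RCN1 (0.26, SE 0.05) and PDIA5 (0.36, SE 0.06) among the rises. PDIA5 therefore rose in knockdown and fell with PRGL493. Of 20 translocon, signal peptidase and glycosylation genes 7 were higher, among them DDOST (0.30, SE 0.05), and 2 lower, STT3B (-0.36, SE 0.05) and the signal peptidase subunit SPCS3 (-0.36, SE 0.06). Among degradation genes 1 was higher and 3 lower of 18, with RNF139 (-0.36, SE 0.07), EDEM3 (-0.31, SE 0.08) and AUP1 (-0.25, SE 0.07) the lower ones. AUP1 was higher with PRGL493 (0.21, SE 0.07).

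Genes of the COPII coat were called in both directions, at shares not far from those of all genes. Of 10 further COPII genes 2 were higher and 2 lower in knockdown, beside 14.7% and 15.3% of all genes. SAR1A was at -0.32 (SE 0.05), SEC23A at 0.17 (SE 0.05) and SEC13 at 0.21 (SE 0.07). With PRGL493 2 were higher, SEC31A (0.25, SE 0.05) and SEC24C (0.17, SE 0.05), and 1 lower, SEC24A (-0.19, SE 0.06). Among all genes 21.4% were higher and 20.4% lower with PRGL493. ATF6B, a relative of ATF6, and MBTPS2, a protease that cuts ATF6, were lower in both treatments, at -0.26 (SE 0.05) and -0.17 (SE 0.06) in knockdown and -0.24 (SE 0.05) and -0.27 (SE 0.06) with PRGL493. MBTPS1, the other protease, was at -0.15 (SE 0.05) in knockdown and 0.14 (SE 0.05) with PRGL493, both called. TMBIM6, an ER membrane protein that restrains IRE1, rose with PRGL493 (0.21, SE 0.05).

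Targets of the PERK arm were lower in 6 of 8 cases and higher in 0 with PRGL493 by edgeR and by DESeq2 (0 higher at an unadjusted p below 0.05), and lower in 4 and higher in 3 in knockdown. Among all genes 20.4% were lower and 21.4% higher with PRGL493, and 15.3% lower and 14.7% higher in knockdown. ASNS, asparagine synthetase, was at 407 ± 29.2 CPM in knockdown, 127 ± 2.44 CPM with PRGL493 and 333 ± 6.16 CPM in control cells, so it rose in knockdown (log2 fold change 0.29, SE 0.05) and fell with PRGL493 (-1.39, SE 0.05). DDIT3 (CHOP), a factor that promotes cell death under stress, fell in knockdown (-0.37, SE 0.06) and with PRGL493 (-1.04, SE 0.07). The transcription factor ATF3 was at -2.80 (SE 0.07) in knockdown and -2.02 (SE 0.06) with PRGL493. SESN2 was at -0.98 (SE 0.06) in knockdown and -0.71 (SE 0.06) with PRGL493, and the phosphatase subunit PPP1R15A at -0.68 (SE 0.05) in knockdown and -0.64 (SE 0.05) with PRGL493, all called lower. ATF4 itself rose in knockdown (0.23, SE 0.06, adjusted p = 0.0085) and was not called with PRGL493 (0.04, SE 0.06, adjusted p = 0.62). Several of these genes are also known to respond to amino acid supply.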

How the data were processed

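The deposited table gave, per the file headers, a row per gene symbol and a column per library of expected counts, which the authors had not scaled for depth. Of the values 10.5% were not whole, and all were rounded before testing. The submitters' processing notes name the build GRCh38. For the aligner, the counter, the annotation and the use of strand, the entry is: not given in the sources used here. The table was filtered with filterByExpr (14135 genes left), scaled with TMM, and fitted over 9 libraries by edgeR 4.0.16 in R 4.3.3 (glmQLFit, robust), with group as its only term and 6 residual degrees of freedom. DESeq2 1.42.0 served as an alternative. The pipeline was tested on simulated data. Gene positions and exon lengths came from GENCODE release 29 (GRCh38) and promoter sequences from RefSeq (GRCh38.p14). Each member is named with its change. Values per library are given for the sensors and XBP1 and, in each other role group, for the 4 members with the smallest adjusted p in either treatment. Up to 3 called genes per other list and treatment are named. ATF4, and AUP1 and MBTPS1 with PRGL493, were named after their values were seen. Members and lists were chosen with earlier results of these data known. Of 85 other ER genes 84 matched a row, with UFD1, SELENOS and SELENOK under the older symbols UFD1L, VIMP and SELK. MARCH6 matched none, and 28 row symbols had the form of dates. Chi-square per degree of freedom between replicates was 4.03 to 34.1, so none is a duplicate. Low counts limit DERL3 only. Exons of 10 members overlap those of another counted gene, so some of their reads may belong elsewhere. Among them are DNAJB11, which overlaps TBCCD1 over 381 bp, and SEC61A1, which overlaps RUVBL1 over 161 bp, both on the opposite strand.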

Additional observations from a re-analysis of the deposited data

How the results depend on the processing

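All values of called members kept their sign under the 16 alternatives. The count of members lower with PRGL493 (20) ranged from 19 to 21 when a library was left out, and the count higher in knockdown than with PRGL493 (22) from 20 to 25. The count higher with PRGL493 (4) was 1 with DESeq2 size factors, 2 without a filter, 0 with at least 1 CPM in 3 libraries, 2 with the DESeq2 test and 0 to 4 when a library was left out. The count higher in knockdown (7) was 11 with library totals alone and 4 to 11 when a library was left out, and the count lower (2) was 1 to 6. The count lower in knockdown than with PRGL493 (1) was 1 to 2. With library totals alone 59.9% of all calls in knockdown were higher, against 49% with TMM, and the median of all genes moved by less than 0.1.

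Same-numbered libraries were correlated in their deviations from group means at -0.084 to 0.152. Control and knockdown libraries correlated best with their own number (0.108, 0.152 and 0.062), those with PRGL493 did not. Control and knockdown libraries of unlike number ran from -0.138 to 0.025. Whether same-numbered control and knockdown libraries share a batch was not tested. With the replicate block 7 members were higher and 2 lower in knockdown, and the count higher with PRGL493 was 1. Depth limits DERL3.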

Other observations

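Outside the 34 members, 33 genes had an exact ERSE or ERSE-II in their RefSeq window, and 20 of them were tested. With PRGL493 6 were lower and 3 higher, with a median log2 fold change of -0.05, against 20.4% and 21.4% of all genes. In knockdown 2 were lower and 3 higher (median -0.03). The element was searched for after the data had been seen, and these values are a description only.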
